A study of Mus musculus with 4 samples.

Results

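The molar germ of C57BL/6 mouse embryos at embryonic day 11 (E11) was compared with the molar germ at embryonic day 14 (E14) across all genes of a 2-colour expression array. Each stage was a pool of whole germs of the first lower molar, with total RNA of the E11 pool in the red dye (Cy5) and of the E14 pool in the green dye (Cy3). There was 1 array, the dyes were not swapped, and no genotype or treatment separated the pools. The sources used here do not give the number of germs or litters behind a pool. Of 41174 features that were not controls, 24401 (59.3%) were well above background in at least 1 dye. They stood for 16337 of 27668 genes, 14742 of them measured at both stages, 519 at E11 only and 1076 at E14 only. A gene is represented by the brightest of its features, and its value is the log2 ratio of E11 over E14, so that 1 means 2-fold higher at E11. The same study hybridised E12, E16 and E18 pools against E14 on 3 other arrays, which show how the E14 channel varied over 4 hybridisations.

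At E11 the site of the first molar is a thickening of the oral epithelium over neural crest mesenchyme of the jaw, and the epithelium holds the signals that start the tooth. By E14 the epithelium has grown down into a cap with a signalling centre, the enamel knot, and the mesenchyme has condensed beneath it into the dental papilla and follicle. The same ligand families, FGF, BMP, Wnt and Hedgehog, are used back and forth between both tissues, with secreted inhibitors that limit where they act.

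With no replicate of the E11 pool no test across genes was possible, and no p-value is given. A gene is counted as higher or lower where the ratio passed 2-fold. The SD of a gene's E14 log2 level over the 4 hybridisations had a median of 0.05 and a 95th percentile of 0.11. The 124 features printed in at least 8 usable spots had a median SD between spots of 0.058 and a highest of 0.21. The labels give the same pooled E14 source for all 4 hybridisations and do not say whether it was 1 extract, so this SD may be technical only. For genes named because they passed 2-fold, an E11 value outside the E14 range follows largely from that choice. It adds no separate support. For E11 the spread between embryos or litters was not measured. In whole germs, more cells of a type and more RNA per cell cannot be told apart.

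Of the 16337 genes, 278 (1.70%) were at least 2-fold higher at E11 and 848 (5.19%) at least 2-fold lower. The middle of the distribution was narrow: 12802 genes (78.4%) lay within 1.5-fold, and the median log2 ratio was -0.021. The tail towards E14 was longer, with 152 genes at least 4-fold lower and 18 at least 4-fold higher. At 8-fold the counts were 41 lower and 3 higher. With the genes in 4 equal sets by brightness, 1 gene was 2-fold higher and 29 were lower in the dimmest set, 56 and 261 in the next, and 116 and 320 in the one after. The background correction adds an offset of 50 to both dyes, which pulls dim ratios towards 0. With the scanner's own ratio, which has no such offset, the dimmest set held 567 higher and 958 lower genes. The predominance of lower genes depends on how the dyes are balanced. Loess, which removes the trend of the ratio with brightness, was the main setting, and plain centring on the array's median gave 4267 genes higher and 286 lower. Under plain centring the median ratio climbed from -0.016 in the dimmest set to 1.18 in the brightest and was 0.46 over all genes. List members and the 25 highest and 25 lowest genes were checked under both where they passed 2-fold, and a reversal is named where it occurs. For genes within 2-fold a change of sign was not looked for. Shares of a list are to be read against the 1.70% of all genes that were higher and the 5.19% that were lower.

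**Figure D1:**
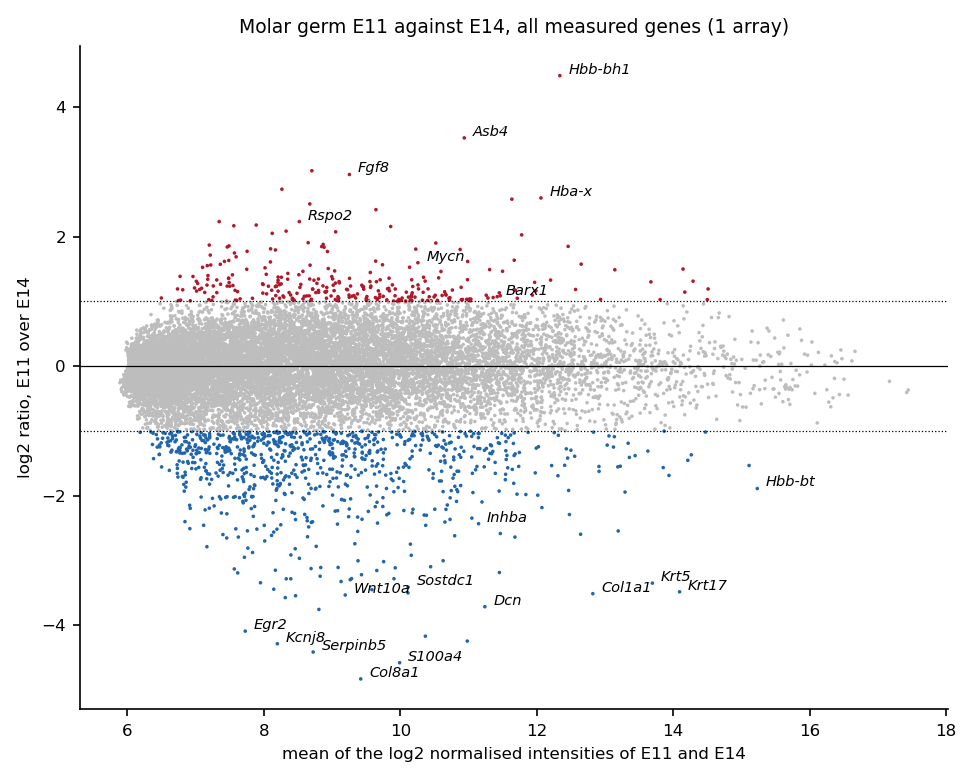
Log2 ratio of E11 over E14 (vertical axis) against the mean of the 2 log2 normalised intensities (horizontal axis) for 16337 measured genes, 1 point a gene. Red points are the 278 genes at least 2-fold higher at E11, blue points the 848 at least 2-fold lower, dotted lines mark 2-fold, and the blue points reach further from 0 than the red ones.

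The largest ratio towards E11 was that of a globin. Hbb-bh1, an embryonic beta-like globin of primitive red cells, read 24508 in normalised intensity units at E11 and between 993 and 1145 in the 4 E14 hybridisations. Its log2 ratio was 4.48, its E14 SD was 0.09, and its feature lies at chr7:99898179-99898238 in the array's mouse build mm7. Hba-x, the embryonic alpha-like zeta globin, read 10517 against 1166 to 1738, and Hbb-y, the embryonic epsilon globin, read 30438 against 10769 to 13498. The adult-type globins stood the other way: Hbb-bt read 19999 against 55777 to 74101, and Hba-a1 12253 against 29121 to 32230. In none of these 5 globins did the E11 value fall inside the E14 range. The log2 ratios were 2.60 for Hba-x, 1.50 for Hbb-y, -1.89 for Hbb-bt and -1.37 for Hba-a1, of which Hba-a1 turned to 0.20 under plain centring. The median of the 2 adult-type globins was -1.63, or 0.0 under plain centring, where Hbb-bt also fell short of 2-fold. Near-identical adult globin copies share sequence, so the values of Hbb-bt and Hba-a1 cannot be separated from those of their copies. The 4 measured probes of Hbb-bt had a median of -3.60.

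Primitive red cells mature in the blood stream and are replaced around mid-gestation by definitive red cells from the fetal liver. A list of embryonic globins and general red cell genes, not limited to primitive cells, had 16 measured members with a median of 0.69. Of these 16, 7 (43.8%) were at least 2-fold higher, against 1.70% of all genes, and none lower. Besides the globins these were Hemgn, a nuclear regulator of red cells, Slc4a1, the band 3 anion exchanger (1.47), Nfe2, a globin gene activator (1.20), and Tal1, a blood transcription factor (1.05). Hemgn was not well above background at E14 in any of its probes and was at least 4.70-fold higher at E11. Alas2, the first enzyme of heme synthesis in red cells, had a log2 ratio of -0.29. The summed intensity of the list was 69324 at E11 and 16190 to 18078 at E14, mostly globin signal. Whether the amount of blood in the dissected pieces contributed was not tested.

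The promoter windows of 4 of these globins are shown because their genes sit in the same 2 clusters and had opposite ratios after loess. Each run of 140 bases reaches from 120 before to 20 after the start of transcription, from RefSeq on build GRCm38.p6, read on the gene's strand. Capitals mark matches on either strand to the CACCC box, the CCAAT box, the TATA-like ATAAA and the GATA-like GATAA, and no matches overlap. Hba-x lies at chr11:32276480-32276619 (plus strand), Hba-a1 at chr11:32283552-32283691 (plus), Hbb-y at chr7:103853188-103853327 (minus) and Hbb-bt at chr7:103813904-103814043 (minus).
Hba-x (higher at E11): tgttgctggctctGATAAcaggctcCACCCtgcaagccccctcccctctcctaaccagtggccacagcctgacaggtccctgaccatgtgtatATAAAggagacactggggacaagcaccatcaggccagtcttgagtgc
Hbb-y (higher at E11): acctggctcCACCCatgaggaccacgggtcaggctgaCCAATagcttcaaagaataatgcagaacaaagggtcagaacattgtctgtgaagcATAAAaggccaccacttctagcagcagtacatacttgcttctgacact
Hba-a1 (lower at E11): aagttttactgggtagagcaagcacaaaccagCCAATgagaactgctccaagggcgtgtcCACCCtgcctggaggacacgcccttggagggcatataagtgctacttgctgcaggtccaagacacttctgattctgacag
Hbb-bt (lower at E11): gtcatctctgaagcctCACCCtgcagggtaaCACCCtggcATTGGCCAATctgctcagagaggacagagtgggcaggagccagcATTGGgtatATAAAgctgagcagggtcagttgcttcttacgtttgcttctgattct
All 4 windows hold CACCC, which 35.1% of 32851 RefSeq promoter windows of the same length hold. CCAAT is in 3 of the 4 and in 23.1% of all windows, ATAAA in 3 and in 21.9%, and GATAA in Hba-x and in 12.0%. The letters do not sort the windows by the direction of the ratio: Hbb-y and Hbb-bt hold the same 3 motifs.

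Outside blood, the highest ratio was that of Asb4, a subunit of ubiquitin ligases, with 6653 at E11 and 498 to 591 at E14 (log2 3.52). Its other probe gave 1.41, so the size of the ratio depends on the probe. Car14, a membrane carbonic anhydrase, read 1187 against 93.6 to 147 (3.02), and Smoc1, a secreted matrix protein that binds calcium, read 793 against 84.1 to 119 (2.73). Crym, which binds thyroid hormone, read 7776 against 1295 to 1333 (2.58). All of these E11 values lay above their E14 ranges, which follows largely from picking the highest ratios. Bcat1, a branched-chain amino acid transaminase, had 2.51, with 0.35 in its other probe. Lix1 had 2.17, Fndc3c1 2.16, Zmat4 2.08, Spin2c 2.07 and Mogat2, an acylglycerol transferase, 2.05. Nnat, a small membrane protein gene expressed from the paternal allele, had 2.03, but its E14 values spread from 574 to 1741 (SD 0.77). Pf4 (2.42) and Ppbp (2.18), chemokines of platelets, Rhd (1.86), a red cell membrane protein, and Mpo (1.84), the myeloperoxidase of neutrophils, were also among the 25 highest. The others there were Ebf3 (1.88), a helix-loop-helix factor, Aif1l (1.90), 2610318N02Rik (1.91), Dlk1 (1.85), Fli1 (1.85) and Sh3gl3 (1.84).

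Among ligands of the oral epithelium, Fgf8, the FGF that marks the presumptive molar epithelium, was the one gene at least 2-fold higher at E11. It read 1703 at E11 and 156 to 219 at E14 over 10 spots, a log2 ratio of 2.96 with a spot SD of 0.13 and an E14 SD of 0.27. A second Fgf8 probe gave 0.84. Of the 19 measured genes on that list, 4 (21.1%) were at least 2-fold lower, against 5.19% of all genes, and the median was -0.60, or -0.10 under plain centring. Wnt10a, a Wnt ligand of the enamel knot, read 172 at E11 and 1992 to 2094 at E14 (-3.53). Fgf18 read 145 against 671 to 710 (-2.21), Pthlh, the parathyroid hormone-related peptide, 129 against 416 to 430 (-1.70), and Wnt4 203 against 408 to 418 (-1.03). The E11 value lay below the E14 range in each of these 4. Shh, the Hedgehog ligand of the dental epithelium, was not well above background at E11 and was at least 1.87-fold higher at E14, where it read 120 to 159. For Fgf9 the ratio was 0.57, for Bmp7 -0.01, for Wnt7b -0.06, for Wnt6 -0.57, for Bmp4 -0.67 and for Pdgfa -0.88. Fgf20, another FGF of the enamel knot, had -0.95, just short of 2-fold. Fgf17, Edn1 and Tgfa were not measured at either stage.

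Ligands of the mesenchyme had 1 gene (5.0%) higher and 8 (40.0%) lower among 20 measured, against 1.70% and 5.19% of all genes, with a median of -0.21, or -0.01 under plain centring. The higher one was Rspo2, a secreted amplifier of Wnt signalling, which read 796 against 148 to 169 (2.23). Its relative Rspo1 stood opposite, with 270 against 2130 to 2408 (-3.16). Inhba, the activin subunit that mesenchyme makes after the epithelial signal, read 976 against 5123 to 5272 (-2.43). Tgfb3 had -1.66, Bmp6 -1.60, Tgfb1 -1.33 and Wnt2 -1.27. Fgf3, an FGF of the condensed mesenchyme, and Bmp3 were not above background at E11 and were at least 2.21-fold and 2.04-fold higher at E14. Fgf10, the partner of Fgf3 in the papilla, had 0.13, Igf2 0.01, Wnt5a -0.12 and Cxcl12, a chemokine, 0.55. The E11 value of Fgf10, 109, was above its E14 range of 97.2 to 103 by less than 1.5-fold.

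Of 36 measured receptors, 9 (25%) were lower and 1 (2.78%) higher, the latter close to the 1.70% of all genes. The median was -0.27, which became 0.14 under plain centring. Tgfbr1, a type I receptor for TGF-beta, was the higher one at 1.19, with 0.22 in its other probe. Lower were Fzd1, a Wnt receptor, at -1.94, and Fgfr2, whose epithelial form receives mesenchymal FGFs, at -1.49. Tnfrsf19 had -1.46, Pdgfrb -1.31, Tgfbr2 -1.25, Lrp4 -1.21, Edar, the ectodysplasin receptor, -1.15, Fgfr1 -1.06 and Notch1 -1.03. Ptch1, the Hedgehog receptor and target, had 0.02, and Smo, which carries the Hedgehog signal, had -0.59.

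Secreted inhibitors and response genes had 8 (19%) lower, against 5.19% of all genes, and none higher among 42 measured, with a median of -0.41 that became 0.07 under plain centring. Sostdc1, an inhibitor of BMP and Wnt around the enamel knot, read 340 at E11 and 3484 to 3641 at E14 (-3.41). Wif1, which binds Wnt ligands, read 64.1 against 558 to 663 (-3.13), and Fst, the activin antagonist follistatin, 183 against 967 to 1025 (-2.40). Dkk1, a blocker of the Wnt co-receptor, had -1.72. All 4 were under their E14 ranges. Of transcriptional responders, Etv4, a target of FGF, had -1.39, Lef1, the nuclear partner of beta-catenin, -1.25, and Id4 -1.20. Other pathway readouts lay within 1.5-fold after loess: Axin2, a Wnt target, had 0.20, Dusp6, an FGF target, -0.20, Id1, a BMP target, 0.12, and Gli1, a Hedgehog target, -0.57. Sfrp4 was not above background at E11 and was at least 1.88-fold higher at E14.

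**Figure D2:**
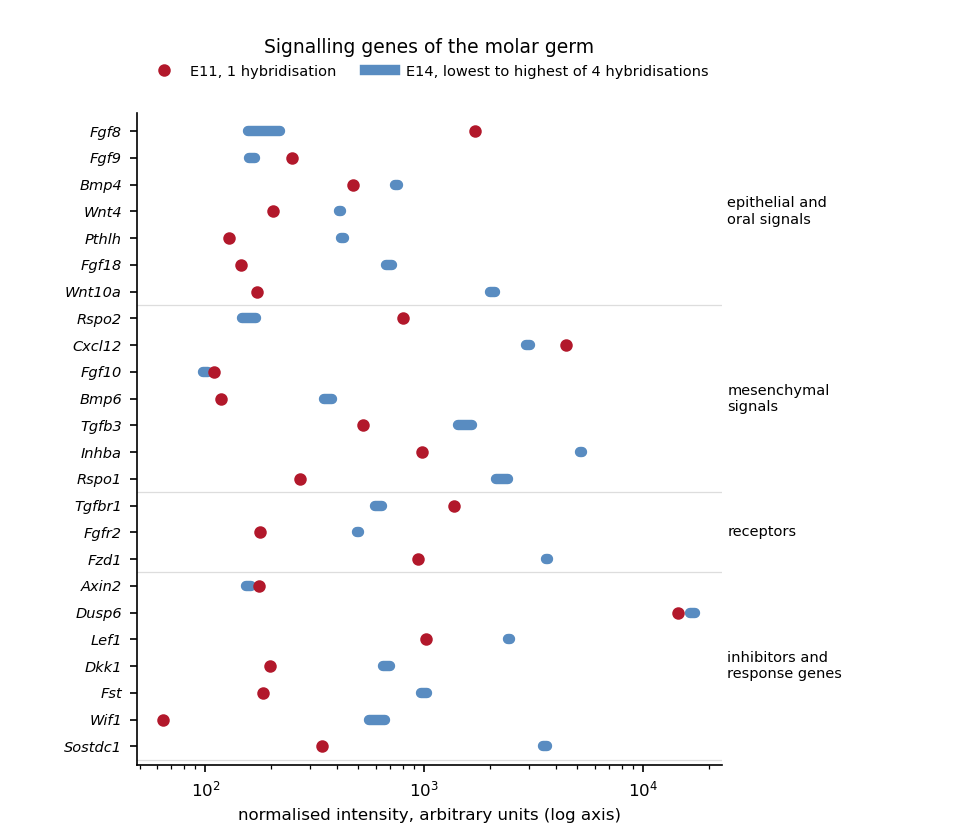
Normalised intensity (log axis, arbitrary units) of 24 signalling genes at E11, 1 hybridisation (red point), and at E14, lowest to highest of 4 hybridisations (blue bar), ordered by role. Fgf8 and Rspo2 lie to the right of their E14 bars, and Wnt10a, Rspo1, Inhba, Fst, Wif1 and Sostdc1 lie to the left. Intensities of different genes come from different probes and are not comparable with each other.

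Transcription factors differed between tissues. Of 30 measured factors of the dental epithelium, 12 (40.0%) were at least 2-fold lower at E11, against 5.19% of all genes, and none higher, with a median of -0.68, or -0.11 under plain centring. Sp6 (epiprofin), a zinc finger factor of dental epithelium, read 304 against 2408 to 2547 (-3.02), with -0.62 in its other probe. Tbx1, a T-box factor needed for enamel-forming epithelium, read 438 against 2939 to 3162 (-2.75). Irx2 had -2.01, Klf4 and Nkx2-3 -1.86 each, Irx1 -1.65, Klf5 -1.61, Grhl2 -1.27 and Trp63, the basal epithelial p63 gene, -1.21. Pitx1 read 21540 against 10279 to 12814 (0.96), just under 2-fold higher, Eya1 had 0.57 and Sox2 0.10. Isl1 was measured at E11 only and was at least 1.55-fold higher there. Tfap2b was not above background in its brightest probe at E11 (-1.23).

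Of 53 measured factors of jaw mesenchyme, 11 (20.8%) were at least 2-fold higher at E11, against 1.70% of all genes, and 4 (7.55%) lower, against 5.19%, with a median of 0.26, or 0.86 under plain centring. Meox2, a homeobox factor, read 537 against 107 to 155 (1.79), and Tbx3, a T-box repressor, 4809 against 1739 to 1778 (1.47). Barx1, the homeobox factor of molar-forming mesenchyme, read 3974 against 1628 to 1889 (1.07), and Lhx8, a LIM homeobox factor of the oral jaw, 4833 against 2337 to 2613 (1.05). Each of these E11 values was above the E14 range. Foxd1 had 1.63, Foxp2 1.62, Alx4 1.57, Foxc2 1.55 and Tbx2 1.02. Tbx18 was not above background at E14 and was at least 2.61-fold higher at E11. Several other transcription factors known from tooth bud mesenchyme did not reach 2-fold: Lhx6 had 0.67, Dlx1 0.32, Pax9 0.11, Msx2 -0.12, Msx1 -0.69 and Dlx2 -0.72. Lower at E11 were Meox1 at -2.27, Runx2, the factor of bone and dental papilla cells, at -1.45, Mef2c at -1.37 and Prrx2 at -1.02. Prrx2 turned to 0.36 under plain centring. Of 38 Hox genes on the array 5 were above background and none passed 2-fold, the highest being Hoxa3 at 0.17 and the lowest Hoxb6 at -0.51.

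Keratins and junction genes had the lowest median of the 19 gene lists plotted. Of 39 measured, 26 (66.7%) were at least 2-fold lower at E11, against 5.19% of all genes, and none higher, with a median of -1.50, or -0.86 under plain centring. Krt5, the basal keratin, read 4153 at E11 and 31279 to 42781 at E14 (-3.35), and its partner Krt14 read 3880 against 22638 to 24891 (-2.54). Krt17 read 5225 against 48054 to 58474 (-3.48). Pkp1, a plaque protein of desmosomes, had -3.50, Itgb4, the hemidesmosome integrin, -3.11, Dsp, desmoplakin, -2.92, and Col17a1, a hemidesmosome collagen, -3.24. Serpinb5, the epithelial serpin maspin, read 91.6 against 1920 to 2024 (-4.41). Keratins of simple epithelium were split: Krt8 had -0.28 and Krt18 -1.59. Cdh1, E-cadherin, had -1.63, Epcam -0.81 and Esrp1, a splicing factor of epithelia, -0.59. The tight junction genes Cldn7 and Cldn3 had 0.82 and 0.29. All 14 measured markers of dental and oral epithelium had ratios under 0, and their summed intensity was 21309 at E11 against 127571 to 148050 at E14. What share of this reflects the amount of epithelium in each pool was not tested.

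**Figure D3:**
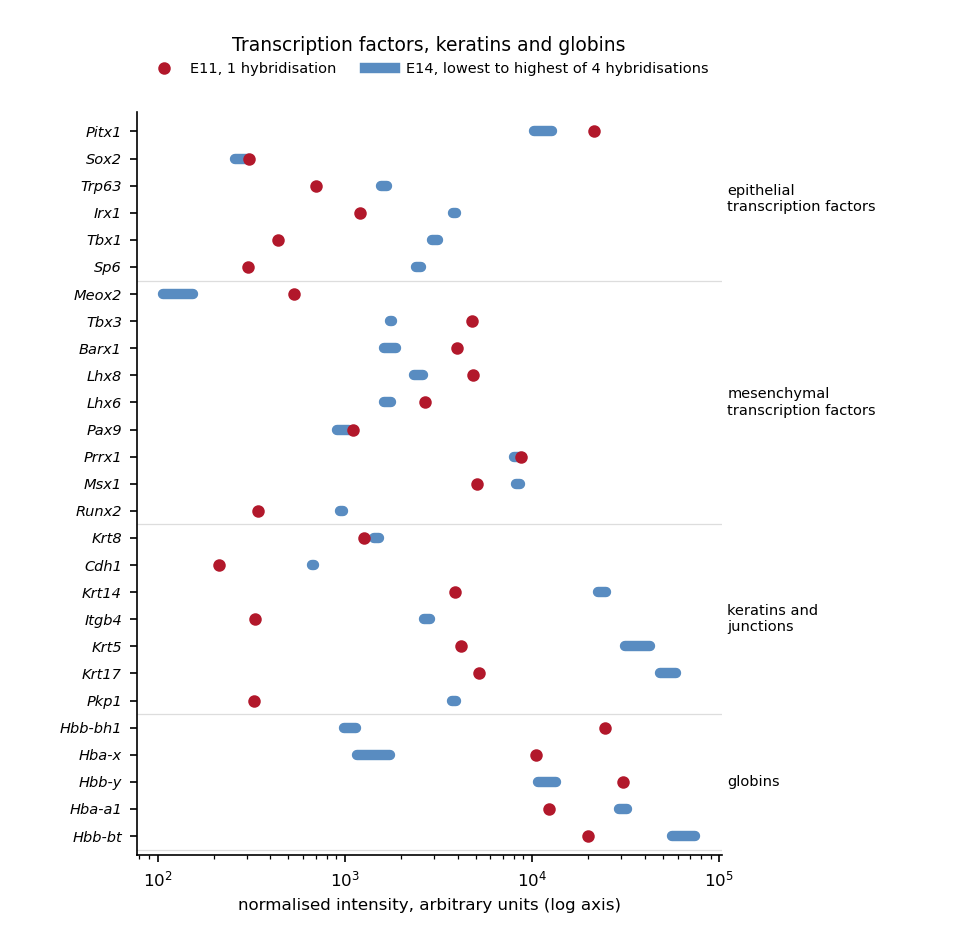
Normalised intensity (log axis, arbitrary units) at E11, 1 hybridisation (red point), and at E14, lowest to highest of 4 hybridisations (blue bar), for 6 epithelial and 9 mesenchymal transcription factors, 7 keratin and junction genes and 5 globins. Krt5, Krt17, Pkp1, Tbx1 and Sp6 lie left of their E14 bars, Meox2, Tbx3, Barx1 and Lhx8 lie right, and the embryonic and adult globins lie on opposite sides.

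Matrix genes followed. Of 37 measured collagens, 16 (43.2%) were lower at E11 and 2 (5.41%) higher, against 5.19% and 1.70% of all genes. The collagen median was -0.85, or -0.22 under plain centring. Col8a1, a short-chain collagen, read 129 against 3552 to 3653 and had the lowest ratio of all genes above background in both dyes, -4.83, with -0.78 in its other probe. Col1a1, of the type I collagen of bone, dentin and skin, read 2143 against 21413 to 24640 (-3.51), and Col6a3 465 against 8504 to 8808 (-4.24). Col16a1 had -3.28, Col7a1, of the epithelial anchoring fibrils, -3.10, and Col3a1 -1.56. The probes of 1 gene often differed here: Col6a3 spanned -4.24 to -0.35 over 3 probes, and the median of the 3 Col1a1 probes was -2.79. The 2 higher collagens, Col2a1 (1.33) and Col9a1 (1.16), are cartilage collagens, and Sox9, a transcription factor of cartilage, had 1.29. All 3 are on a list of cartilage and tendon markers. Of its 13 measured genes 3 (23.1%) were higher and 3 (23.1%) lower, against 1.70% and 5.19% of all genes, with a median of -0.09. Of 55 measured proteoglycans, glycoproteins and matrix enzymes, 31 (56.4%) were lower and 2 (3.64%) higher, again against 5.19% and 1.70%, with a median of -1.28, or -0.30 under plain centring. Dcn, decorin, read 668 against 8302 to 8763 (-3.71, other probe -0.20), Prelp had -3.28, Loxl1, which crosslinks elastin, -3.22, Ogn -2.97 and Postn, periostin of the dental follicle, -2.64. Mmp9 had -3.19 and Adamts2, which processes procollagen, -3.44, although its 4 probes reached up to -0.02. Smoc1 and Adamts15 (1.38) were the higher ones. Lum, lumican, had -1.28 and turned to 0.05 under plain centring.

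Genes of mineralised tissue leaned towards E14. Of 14 measured enamel and dentin genes 6 (42.9%) were lower at E11, against 5.19% of all genes, among them Alpl, the phosphatase of mineralisation, at -3.11, Spp1, osteopontin, at -1.97 and Sp7, the osteoblast factor osterix, at -1.34. Amelx, which encodes the main enamel protein, had -0.13 with readings under 100 in every hybridisation, and Ambn, Enam and Dspp were not measured.

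The calcium-binding S100 proteins, serpins and annexins had 15 of 28 measured genes (53.6%) lower and 1 (3.57%) higher, against 5.19% and 1.70% of all genes, with a median of -1.06, or -0.47 under plain centring. S100a4 read 208 against 4973 to 5180 (-4.58), S100a6 312 against 5524 to 5863 (-4.17) and S100a14 122 against 1647 to 1936 (-3.76). The E11 values of all 3 lay more than 8-fold under the E14 ranges. Anxa1, a phospholipid-binding annexin, had -3.30, and Serpini1, the serpin neuroserpin, was the higher one at 1.53. By symbol, the families of at least 10 measured genes with the lowest medians were the annexins (10 genes, -1.51), the keratins (22, -1.22) and the collagens (37, -0.85). Highest were Lsm (13 genes, 0.42), whose products bind RNA in splicing and decay, Trmt (17, 0.41), the tRNA methyltransferases, and Polr (27, 0.34), the RNA polymerase subunits. Among these 57 genes 2 passed 2-fold, Trmt5 (1.04) and Polr3k (1.23), where 1.70% of all genes were higher. The order of the families depends on how the dyes are balanced. Under plain centring Lsm, Trmt and Polr had 1.41, 1.15 and 1.30, and Mcm (1.56) and Rpl (1.49) were among those above them. At the low end Adamts (-0.29) then stood below the collagens (-0.22).

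Genes of mitosis and DNA replication leaned towards E11. Of 57 measured, 51 had ratios above 0 and the median was 0.47, against -0.021 for all genes. Under plain centring the list median was 1.57, against 0.46 for all genes, so whether most of the list stood under 2-fold depends on how the dyes are balanced. After loess 2 (3.51%, against 1.70% of all genes) passed 2-fold: Rfc4, a clamp loader subunit that read 5729 against 2448 to 2678, and Bub1, a spindle checkpoint kinase (1.09). Pcna read 15011 against 8663 to 9008 (0.78), Cdk1 1761 against 1028 to 1127 (0.70), and Mki67 6124 against 6594 to 7169 (-0.23). Of 17 measured cell cycle inhibitors and D cyclins 7 (41.2%) were lower at E11, against 5.19% of all genes, and none higher, with a median of -0.77 that became 0.35 under plain centring. These included Cdkn1a, the p21 gene (-1.89), Cdkn2c (-1.78), Gadd45g (-2.62) and Ccnd2 (-1.69). Cdkn1a read 120 at E11 and 444 to 471 at E14. Ccnd1 had 0.59 and Cdkn1c, p57, -0.08.

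Of 19 measured heterochronic and early embryo genes 3 (15.8%) were higher, against 1.70% of all genes: Mycn (1.60), Hmga2, a chromatin protein of early embryonic tissues (1.33), and Lin28b, which blocks let-7 processing (1.28). Mycn read 2130 against 644 to 704, and Myc stood opposite with 226 against 646 to 678 (-1.54). Igf2bp3, an RNA-binding protein of the same set, had 0.87. Imprinted genes had 4 (10.3%) higher and 4 (10.3%) lower of 39 measured, against 1.70% and 5.19% of all genes: Asb4, Nnat, Dlk1 and Mcts2 (1.02) against Dcn, Plagl1 (-1.21), Kcnq1ot1 (-1.14) and Meg3 (-1.10). Meg3 turned to 0.09 under plain centring. Dlk1, a membrane protein of the Notch ligand type, read 10696 against 2827 to 3120.

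Immediate early genes, which answer growth factors and stress within minutes, had 13 of 32 measured (40.6%) lower, against 5.19% of all genes, and none higher, with a median of -0.78, or -0.14 under plain centring. Egr2, a zinc finger factor, was not above background at E11 in any probe and was at least 14.2-fold higher at E14, the largest such bound. It read 51.4 at E11, which is near the lower limit of the scale, and 875 to 914 at E14. Egr3 was at least 4.68-fold higher at E14, and Egr1 read 77.7 against 749 to 819 (-3.34). Junb had -1.79, Arc -1.61 and Nr4a1 -1.16, while Fos was at least 1.12-fold higher at E14 and Dusp1 had 0.15. Egr2 is the gene with the largest bound and its promoter is shown for that reason, from 120 before to 20 after the start at chr10:67537446-67537585 (plus strand, GRCm38.p6, RefSeq). Capitals mark a CArG box, the motif known for serum response factor, which 0.8% of all windows hold and which lies at -72 from this start.
Egr2 (lower at E11): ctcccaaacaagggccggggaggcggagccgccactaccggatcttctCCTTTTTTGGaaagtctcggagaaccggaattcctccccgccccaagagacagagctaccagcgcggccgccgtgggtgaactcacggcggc
RefSeq lists 5 starts for Egr2, and 3 of their windows hold the box. The window shown is the first of these 3 by position. Its box was therefore fixed by the choice of start and is not to be set against the 0.8%.

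Other genes with a bound towards E14 were Calca, the calcitonin gene-related peptide gene (at least 6.13-fold), Rerg (5.29-fold), Ptgfr, a prostaglandin receptor (4.66-fold), Alox12e (4.21-fold), Fam167a (4.12-fold), Aspn, asporin (3.62-fold), Prdm6 (3.59-fold) and Enpep (3.47-fold). Towards E11, after Hemgn, they were Agtr1a, an angiotensin receptor (at least 3.65-fold), Tbx18, Slc38a5 (2.61-fold), Fam155a (2.28-fold), Nnmt (2.26-fold), Gm4827 (2.05-fold) and Nsg2 (2.02-fold).

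**Figure D4:**
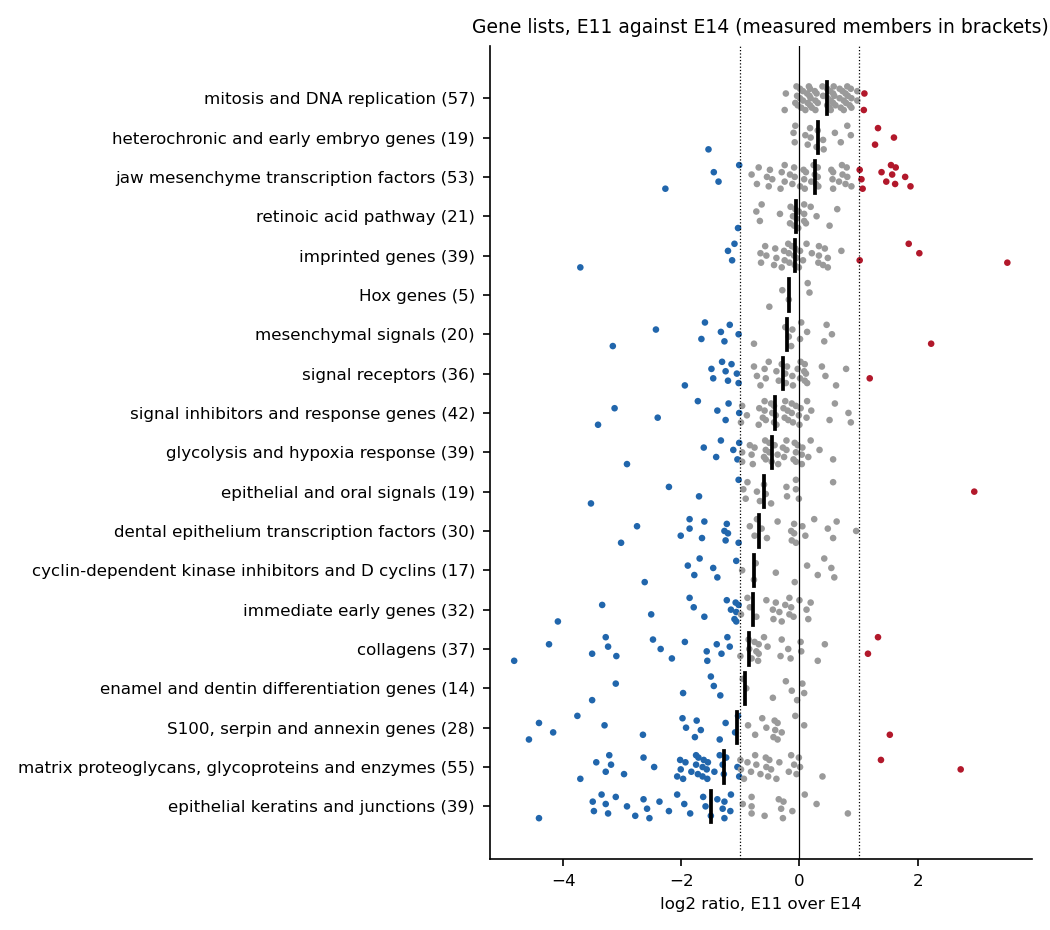
Log2 ratio of E11 over E14 for each measured member (points) of 19 gene lists, with the list median (black bar) and the number measured in brackets. Red points are at least 2-fold higher at E11, blue points at least 2-fold lower, and dotted lines mark 2-fold. Medians run from -1.50 for keratins and junctions to 0.47 for mitosis and DNA replication.

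Glycolysis and hypoxia genes had 7 of 39 (17.9%) lower, against 5.19% of all genes, and none higher, with a median of -0.47 that became 0.47 under plain centring. Ndrg1 had -2.92, Ddit4 -1.62, Slc16a3, a lactate exporter, -1.41 and Slc2a1, the glucose transporter GLUT1, -1.33, while Aldoa had -1.02 and turned to 0.58 under plain centring. In the retinoic acid pathway 1 of 21 measured genes (4.76%, near the 5.19% of all genes) was 2-fold lower, the receptor Rxra, with -1.04 and 0.10 under plain centring. Aldh1a2, which makes retinoic acid, had 0.64.

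Markers of other cell types differed from list to list. Of 12 pericyte and smooth muscle markers 6 (50%) were lower at E11, against 5.19% of all genes, and none higher, led by Kcnj8, a potassium channel of pericytes, which read 66.5 against 1298 to 1374 (-4.29, other probe -1.14). Cspg4, the NG2 proteoglycan, had -2.61. The summed intensity of this list was 8142 at E11 and 15193 to 15722 at E14. The 20 endothelial markers had 1 lower (5.0%, near the share of all genes), Eng (-1.19), a median of -0.26 that became 0.30 under plain centring, and summed intensities of 8606 and 11303 to 11946. Of 14 Schwann cell and glia markers 2 (14.3%) were higher and 2 (14.3%) lower, against 1.70% and 5.19% of all genes, with a median of -0.11. Fabp7 (1.77) and Sox10 (1.14), markers of crest-derived precursors, were higher, and S100b (-2.65) and Egr2, also on the immediate early list, lower. The other 10 lay within 2-fold. The neuronal list had Nefl, a neurofilament gene, higher at 1.71 among 12 measured (8.33%, against 1.70% of all genes), with summed intensities of 2081 and 1796 to 1905. None of 18 macrophage markers and none of 12 skeletal muscle markers passed 2-fold, and Myod1 and Myf5 were not measured. Bone markers had 5 of 12 (41.7%) lower, against 5.19% of all genes, and none higher. These 5, Runx2, Sp7, Alpl, Spp1 and Col1a1, are also counted among the enamel and dentin genes above. The summed intensities of the bone list were 3947 at E11 and 25786 to 28939 at E14, mostly Col1a1 signal. The part of these cells in the ratios of the tissue genes was not tested.

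The labelled tissue was set beside markers of its 2 compartments, which do not tell a molar germ from other oral or jaw tissue. All 14 measured epithelial markers of the oral jaw except Shh were above background at both stages, and 15 of 15 mesenchymal markers were measured. The mesenchymal list had a median ratio of 0.11, or 1.1 under plain centring. Its summed intensity was 49261 at E11 and 75289 to 80328 at E14. Within that list the transcription factors Meox2, Barx1 and Lhx8 were higher at E11 and Vim (-1.39), Col3a1 and Col1a2 (-1.57) lower. Xist, the X-inactivation transcript of female cells, had -1.84 and the Y-linked Eif2s3y, Kdm5d and Ddx3y had 0.70, 0.64 and 0.44. The sex of the embryos in the pools was not tested.

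Values of the genes furthest apart in the other pools stood beside these as follows, all against the same labelled E14 source, which the comparisons share, though the labels do not say whether it was 1 extract. The E11 and E12 arrays were on 1 slide, and the E16 and E18 arrays on another. At E12 Hbb-bh1 had 2.93, Asb4 2.61, Fgf8 2.58 and Smoc1 1.86, and at E18 they had -3.97, -1.46, -1.01 and -0.05. Rspo2 had 1.15 at E12, 2.39 at E16 and 2.20 at E18, so E14 was the lowest of the 5 stages measured. Meox2 had 0.46 at E12 against 1.79 at E11, and Fabp7 0.11 against 1.77. Of the lowest genes, Col8a1 had -2.67 at E12, S100a4 -3.48, Serpinb5 -3.61 and Wnt10a -2.96. Kcnj8 had -4.48 at E12 and 0.80 at E16. Anxa1 had -1.15 at E12 against -3.30 at E11, and Itgb4 -1.30 against -3.11.

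**Figure D5:**
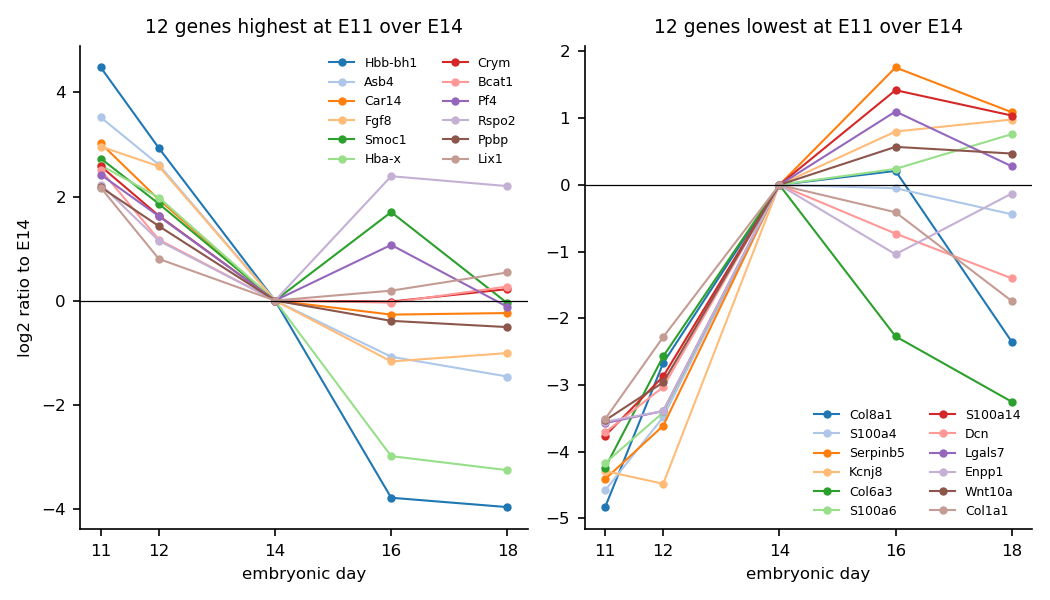
Log2 ratio to E14 (vertical axis) by embryonic day (horizontal axis) for the 12 genes with the highest (left) and the 12 with the lowest (right) ratios at E11, 1 array a stage, with E14 at 0 by construction. Genes were chosen by the E11 value. Hbb-bh1 runs from 4.48 at E11 to -3.97 at E18, and Rspo2 is above 0 on both sides of E14.

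Genes at the 2-fold limit show how fine the boundary is. Ldb2 (1.002) and Chchd4 (1.003) were counted as higher, and Aqp8 (0.998) and Pus10 (0.999) were not. Krtcap3 (-1.001) and Son (-1.003) were counted as lower, and Matn4 and Larp6 (-0.999) were not. Of 460 genes past 2-fold that had at least 2 measured probes, all probes lay on the same side of 0 in 432 (93.9%), and every probe passed 2-fold in 106 (23.0%). In no gene did probes pass 2-fold in opposite directions.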

How the data were processed

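Total RNA was labelled with Cy3 (E14) and Cy5 (E11, E12, E16 or E18), per the labels. The scanner output was made with Agilent Feature Extraction 10.5.1.1, per the file headers, which give each spot's intensity and background in both dyes, flags, and a log10 ratio. The deposited value table repeats that log10 ratio in 100% of 44996 rows of the E11 array, to 0.5% of the value or 0.0005. On the E11 array the median Cy5 intensity was 61.3 over a background of 33.5 and the median Cy3 intensity 39.8 over 16.5, with 126 outlier and 0 saturated spots.

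Spot means were background corrected by normexp with offset 50 and normalised by loess within the array (limma 3.58.1, R 4.3.3), controls and outliers at weight 0. Levels were scaled between arrays by Aquantile. The offset pulls the ratios of dim genes towards 0. Features were named by RefSeq accession (23075), symbol (6582) or synonym (3077), and 8440 kept the array's own name. Bounds set the bright stage against the higher of the dim stage's own level and the lowest level well above background. Named genes are the 25 highest and 25 lowest ratios in both dyes, the 10 largest bounds each way, members of 33 lists, and the families and limits given. The members and lists were chosen with earlier results of these data known. The ratio steps were tested on simulated data. Alternatives were no background correction, the scanner's ratio, offset 16, median centring, both dyes above background, and the median of a gene's probes. Values of a few list members are not reported here.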

Additional observations from a re-analysis of the deposited data

How the results depend on the processing

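The count of genes at least 2-fold apart, 1126 in the main setting, was 3605 with the scanner's log ratio (1426 higher, 2179 lower), 1754 with offset 16 (444 higher, 1310 lower) and 4553 with median centring (4267 higher, 286 lower). The share of higher genes among them was 24.7%, against 39.6% with the scanner's ratio and 93.7% with median centring. The counts with the scanner's ratio and with offset 16 include genes near background, where a smaller offset or none leaves larger ratios. The median-centred ratio instead rose with brightness, to a median of 1.18 in the brightest set. Of the 278 higher and 848 lower genes, 277 and 847 were 2-fold apart with the scanner's ratio, and 278 and 286 with median centring. Of 233 named genes past 2-fold, 233 kept their call with the scanner's ratio, 232 with no background correction, 232 with offset 16, 195 with the median of a gene's probes and 142 with median centring. Median centring reversed 6: Aldoa (0.58), Hba-a1 (0.20), Lum (0.05), Meg3 (0.09), Prrx2 (0.36) and Rxra (0.10). With the offset of 50 a gene near background can show only part of a ratio. No paired analysis was possible because there is 1 array of E11 and no replicate numbers.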

Other observations

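Genes of the X chromosome, singled out after their values were seen, had 20 of 455 measured genes (4.40%) at least 2-fold higher at E11 and 18 (3.96%) lower, where the autosomes had 236 of 12972 (1.82%) higher and 753 (5.80%) lower. The median ratio was 0.072 for X genes and -0.012 for autosomal genes. With the scanner's own ratio 16.0% of X genes and 8.32% of autosomal genes were 2-fold higher. Fndc3c1 (2.16) and Spin2c (2.07) led, followed by Amot, a regulator of Hippo signalling (1.49), Dusp9, a phosphatase of MAP kinases (1.22), Cul4b, a ubiquitin ligase scaffold (1.13), Dkc1, of telomerase and small nucleolar RNA complexes (1.04), and Hmgb3 (1.03). Slc38a5, an amino acid transporter, was not above background at E14 and was at least 2.61-fold higher. Lower at E11 were Xist (-1.84), Gpm6b (-1.86), Bgn, the proteoglycan biglycan (-1.83), and Timp1, an inhibitor of metalloproteases (-1.64). Under plain centring Xist (-0.74) and Timp1 (-0.68) fell short of 2-fold, and Gpm6b (-1.09) and Bgn (-1.28) did not.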
